A study of Panicum virgatum with 8 samples.

Results

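The miR169 family of switchgrass was described from a table of predicted miRNA precursors. Its members were the structures in which the miRNA carried a miR169 name from miRBase and was listed at an abundance equal to or above that of the miRNA*, its partner on the opposite arm of the hairpin. Each locus was counted once. This gave 15 of the 210 loci in the table and 6 of its 59 distinct miRNA sequences. The study's final set of conserved miRNAs was smaller than this table, and which of these loci belong to it was not examined. Each locus was represented by its most stable kept structure, or the first listed at a tie. Where both strands of a hairpin met the rule, this choice also set which strand was called the miRNA, and it fell on the 5′ arm.

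The small RNAs came from Panicum virgatum AP13, the switchgrass genotype of the study, in 8 libraries with 1 library for each condition. The stress series held a cold treatment of 24 hours at 4 °C with its own control, a drought treatment of 11 days without water with its own control, and a re-watered library harvested on day 12. The other libraries were from leaf, stem and panicle, with no treatment named. The methods give the plants as propagated from cuttings and the sampled tissue of the stress series as leaf blades, whereas the labels call it above-ground tissue. The table names no library and lists 1 abundance per sequence, so the libraries are taken as pooled. No value below has a replicate error, no condition could be compared, and the table does not tie an abundance to a read total, although the study gives totals for its libraries. The abundances are whole numbers without a named unit, and values of a few units carry little precision whichever unit applies.

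MiR169 is an ancient plant miRNA family with many closely related mature sequences. Its known targets are mRNAs of NF-YA proteins, the subunit of the NF-Y transcription factor that recognises the CCAAT box of promoters. In Arabidopsis, miR169 and NF-YA are known for their part in drought and nitrogen responses, and in Medicago for nodule development. A plant miRNA is cut from a hairpin precursor by DICER-LIKE1 as a duplex of miRNA and miRNA*, and the miRNA strand is then loaded into an ARGONAUTE protein. The table holds no target transcripts, so targeting of NF-YA was not analysed here. All members carried the family name because the rule required it.

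The 6 mature sequences are shown because their differences set the members apart. They are written 5′ to 3′ with T for U, as in the table, and the capitals mark the seed, bases 2 to 8.
ata-miR169f-5p: cAGCCAAGgatgacttgccga
bdi-miR169k-5p: tAGCCAAGgatgatttgcctgt
ata-miR169d-5p: cAGCCAAGgatgacttgccgg
bdi-miR169d: tAGCCAAGaatgacttgccta
sbi-miR169o: tAGCCAAGgatgatttgcctg
bdi-miR169m: tAGCCAAGgatgacttgccg

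All 6 shared the same seed. No sequence of another name had this seed among the 214 distinct strands listed in the table, and none lay within 2 substitutions of a member. Members were picked by a name that came from matching miRBase sequences, so both results follow at least partly from the selection. The names are those of the matched entries from Aegilops tauschii (ata), Brachypodium distachyon (bdi) and Sorghum bicolor (sbi), not switchgrass gene names.

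Relative to ata-miR169f-5p, the sequences differed at only 5 positions, counted from 1 at the 5′ end, namely 1, 9, 14, 20 and 21. In the notation used here the base of ata-miR169f-5p comes first, then the position, then the base of the other sequence. The closest relative was ata-miR169d-5p, which differed by A21G at its last base. The sequence bdi-miR169m carried C1T and ended 1 base earlier. A change inside the body of the miRNA was found in bdi-miR169d, with G9A beside C1T and G20T, and in sbi-miR169o, with C14T beside C1T, G20T and A21G. The sequence bdi-miR169k-5p had the same 4 changes as sbi-miR169o and 1 further base at its 3′ end, so these names stand for length forms of 1 sequence.

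**Figure D1:**
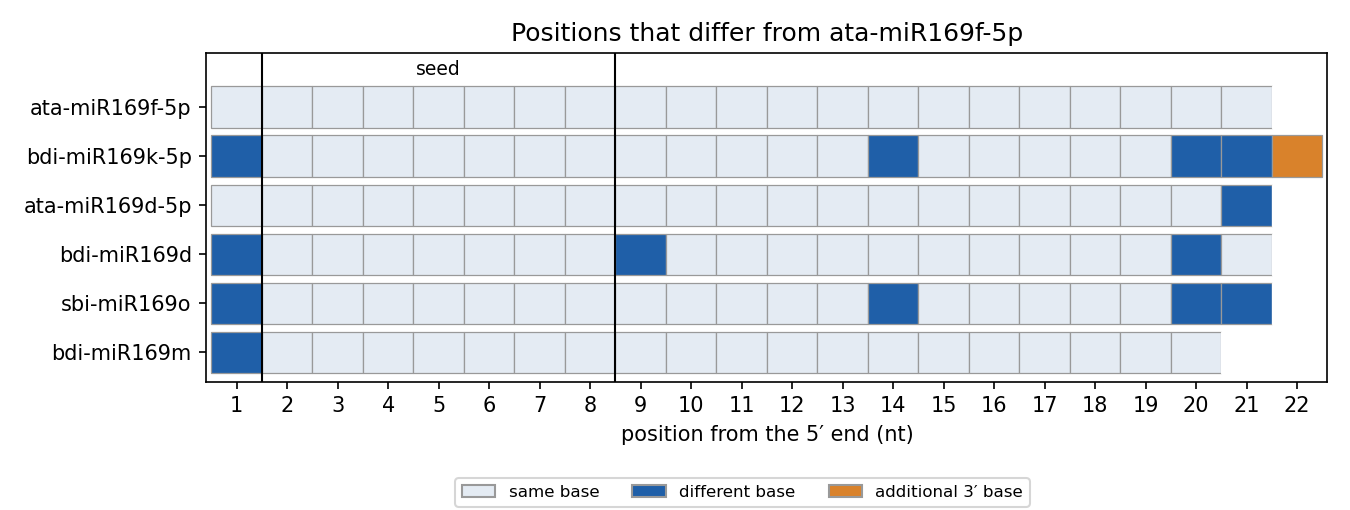
Each row is a miR169 sequence and each column a position from the 5′ end in nt. Dark blue cells differ from ata-miR169f-5p and orange marks the additional base of bdi-miR169k-5p. Positions 2 to 8 are the same in all 6 rows, and positions 1, 9, 14, 20 and 21 hold every substitution.

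In Arabidopsis, a 5′ U favours loading into ARGONAUTE1. The first base was T (U in the RNA) in 4 of the 6 sequences and C in the 2 ata sequences. Over all 59 sequences in the table, 83.1% began with T and 6.78% with C. The length was 21 nt in 4 sequences, 20 nt in bdi-miR169m and 22 nt in bdi-miR169k-5p.

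The family was made of low values. The most abundant sequence was ata-miR169f-5p at 29, followed by bdi-miR169k-5p at 22. The sequence ata-miR169d-5p was listed at 5, bdi-miR169d and sbi-miR169o at 4 each, and bdi-miR169m at 2. The 2 leading sequences thus carried 51 of the summed 66. The median over all 59 sequences in the table was 120. An abundance under 10 was listed for 4 of the 6 members and for 22.0% of all sequences. The methods set a minimum of 10 TP10M (abundance scaled to a fixed number of reads) for the sequences evaluated, but whether the listed values are in that unit is not known. The length forms bdi-miR169k-5p (22) and sbi-miR169o (4) were listed under separate names at separate loci. All bases of sbi-miR169o lie within bdi-miR169k-5p, so the Chr09N precursor listed for the longer form also holds them. The 4 can therefore not be assigned to the loci listed for sbi-miR169o. How far 2 or 4 differ from 5 cannot be stated without a unit and replicates, so no order is given among the 4 lowest.

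**Figure D2:**
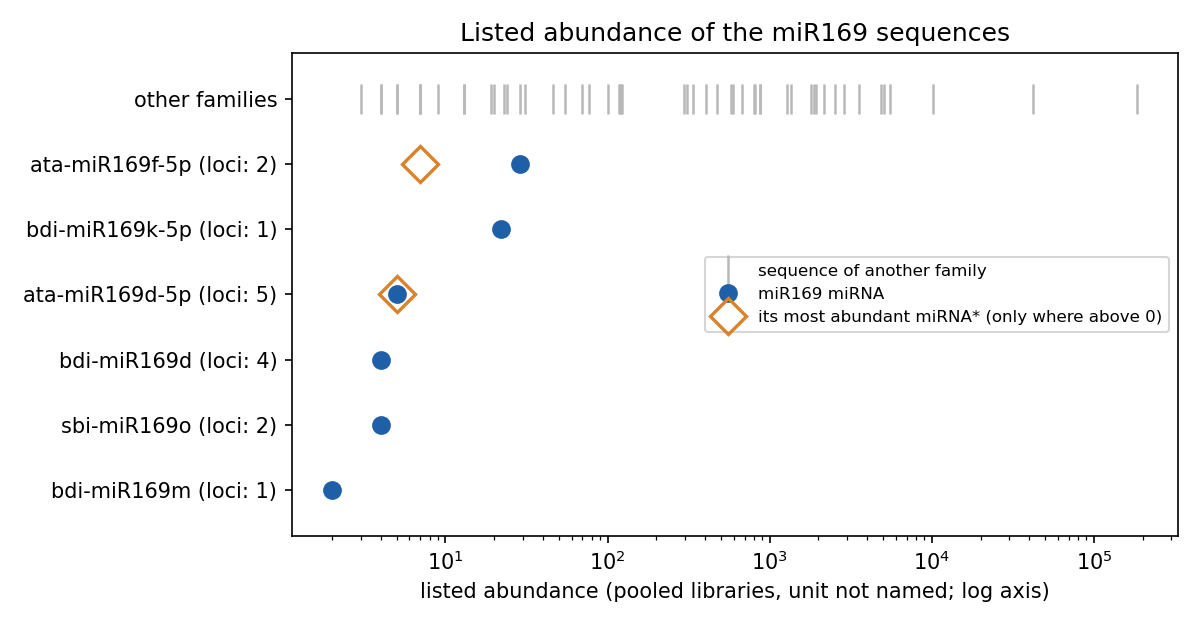
Listed abundance on a log axis for the 6 miR169 sequences (blue points), with the number of loci beside each name. Orange diamonds give the most abundant miRNA* where it was above 0, and grey ticks the sequences of other families. The members lie between 2 and 29, and the diamond of ata-miR169d-5p falls on its own point at 5.

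A summed abundance of 66 was 0.0235% of the total over all sequences. By this sum the family ranked 23 of 29, next below miR528 at 77 and next above miR395 at 55, each of which had 1 sequence. By number of distinct sequences miR169 ranked first with 6, ahead of miR156 and miR171 with 5 each and miR166 and miR396 with 4 each. Length forms were not merged in any family, so bdi-miR169k-5p and sbi-miR169o counted separately in this narrow lead. Only 2 of the miR169 sequences were listed at 10 or more. By loci it ranked 5 of 29, with 15 against 26 for miR156, 25 for miR171, 19 for miR166 and 9 for miR396. The summed abundance divided by the number of sequences was 11.0 for miR169, against 693.8 for miR156, 532.4 for miR171, 48350.0 for miR166 and 1388 for miR396. These families were picked for their number of sequences and no test was made between families.

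The number of loci did not follow the abundance of the sequences. The top sequence, ata-miR169f-5p, had 2 loci, and bdi-miR169k-5p had 1. The low-abundance ata-miR169d-5p had 5 loci and bdi-miR169d had 4, while sbi-miR169o had 2 and bdi-miR169m had 1. The bases of sbi-miR169o also lie in the precursor of bdi-miR169k-5p, which was not counted among its loci. The table gives each sequence a single value, so the output of a single locus was not measured.

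The miRNA was on the 5′ arm at all 15 loci, against 54.3% of loci in the whole table. At 10 of the 15 the 3′ strand was listed at 0 without a miRBase name. The naming rule could not have called such a strand the miRNA. At the 2 loci of ata-miR169f-5p the abundances, 29 against 7, decided the arm. At the 3 others the strands were equal, and the structure chosen for each locus set the arm. The count of 15 is thus largely set by the selection and is no measure of arm preference. The miRNA* was listed at 0 at 10 of the 15 loci, against 56.2% of all loci. It was listed at 7 at both loci of ata-miR169f-5p, where it had the name zma-miR169b-3p of maize (zma). It was listed at 5 at 3 loci of ata-miR169d-5p, on Chr06N, Chr07K and Chr07N, under the name zma-miR169c-3p. The 10 strands at 0 had no miRBase name and the 5 above 0 all had one, so whether an unnamed strand was sequenced cannot be read from its 0.

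At those 3 loci miRNA and miRNA* had equal abundance, 5 and 5. They were the only loci of this kind in the table (3 of 210, or 1.43%). All 3 share 1 miRNA and 1 miRNA* sequence, each with a single listed value. The equality is therefore 1 pair of values and not 3 separate observations. The rule kept both strands there, and calling ata-miR169d-5p the miRNA rests on the structure chosen for each locus, not on its abundance. At the other 2 loci of the same sequence, on Chr04K and on Chr06K, the miRNA* was at 0. For ata-miR169f-5p the miRNA was listed at 29 against 7 for its miRNA*.

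The miRNA* strands comprised 12 distinct sequences over 15 loci, with lengths of 18 to 22 nt, against 6 miRNA sequences. The miRNAs had to carry a miR169 name and the miRNA* strands did not, so these counts do not compare their variation. At 10 loci the miRNA* was listed at 0. The miRNA* strands are shown for the loci found on both the K and the N copy of a chromosome, the homoeologous chromosomes of this tetraploid. Capitals mark the bases that differ between the copies, and strands without capitals were identical.
bdi-miR169d miRNA*, Chr03K: Ggcaagcattctggttaag
bdi-miR169d miRNA*, Chr03N: gcaagcattctggttaag
ata-miR169f-5p miRNA*, Chr05K and Chr05N: ggcaagttgttcttggctaca
ata-miR169d-5p miRNA*, Chr06K: ggcaagtTtgtccttggctaca
ata-miR169d-5p miRNA*, Chr06N, and Chr07K and Chr07N: ggcaagtCtgtccttggctaca
sbi-miR169o miRNA*, Chr06K: ggcagtctccttgTcTagc
sbi-miR169o miRNA*, Chr06N: ggcagtctccttgGcAagc
bdi-miR169d miRNA*, Chr08K: ggccggtcttcttggctagcC
bdi-miR169d miRNA*, Chr08N: ggccggtcttcttggctagcT

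There were 6 such K and N pairs with the same miRNA, on chromosomes 3, 5, 7 and 8 and, for 2 sequences, on chromosome 6. The miRNA* was identical in 2 pairs, those of ata-miR169f-5p on chromosome 5 and of ata-miR169d-5p on chromosome 7. It was substituted in 3 pairs, where the base of the K strand is given first and positions count from 1 at its 5′ end. The ata-miR169d-5p pair on chromosome 6 differed by T8C, and its N strand was the same as both strands on chromosome 7. This single base separated a miRNA* without a name, listed at 0, from zma-miR169c-3p, listed at 5. The sbi-miR169o pair differed by T14G and T16A and the bdi-miR169d pair on chromosome 8 by C21T. On Chr03N the listed miRNA* lacked the first base of the Chr03K strand.

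Loci without a copy on the other subgenome were those of bdi-miR169m on Chr02K, of ata-miR169d-5p on Chr04K and of bdi-miR169k-5p on Chr09N. A missing partner says only that none was listed here.

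In version 4.1 of the genome, 8 loci lay on K and 7 on N chromosomes, with none of them on an unplaced scaffold, where 3.33% of all loci lay. The ata-miR169f-5p loci were Chr05K from 23105357 to 23105525 and Chr05N from 21751198 to 21751337, both on the plus strand. The bdi-miR169k-5p locus was Chr09N from 532938 to 533056 on the minus strand. The 3 loci with equal strands were Chr06N from 13909734 to 13909887 and Chr07K from 65625383 to 65625527 on the plus strand, and Chr07N from 62690489 to 62690633 on the minus strand. Genes and exons around the loci were not analysed here.

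The other loci of ata-miR169d-5p were Chr04K from 57536348 to 57536474 on the minus strand and Chr06K from 13299791 to 13299917 on the plus strand. Those of bdi-miR169d were Chr03K from 5749043 to 5749152, Chr03N from 4675337 to 4675450 and Chr08N from 31152305 to 31152458 on the minus strand, and Chr08K from 26565825 to 26565979 on the plus strand. Those of sbi-miR169o were Chr06K from 69465410 to 69465545 and Chr06N from 76187627 to 76187743 on the plus strand, and that of bdi-miR169m was Chr02K from 65424451 to 65424564 on the minus strand. Loci of a pair lay on the same strand in 4 of 6 pairs and on opposite strands on chromosomes 7 and 8.

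In Arabidopsis, some MIR169 genes are known to sit in tandem clusters. No cluster was listed here, with a cluster defined as neighbours at most 10 kb apart. Only Chr06K and Chr06N carried more than 1 locus, and these were 56.2 Mb apart on Chr06K and 62.3 Mb apart on Chr06N. Each of those chromosomes held 1 locus of ata-miR169d-5p and 1 of sbi-miR169o.

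The pairing of miRNA and miRNA* was close at most loci. The deposited table listed 1 mismatch position at 3 loci (both of ata-miR169f-5p and that of bdi-miR169m), against 7.62% of all loci with at most 1. It listed 2 at 6 loci, 3 at 2, 4 at 2, 5 at 1 and 6 at 1. The locus with 6 was the sbi-miR169o locus on Chr06N, and it alone exceeded the limit of 5 in the methods, so 14 of 15 loci were within the structure limits, against 88.1% of all loci. The authors' call was miRNA candidate at 13 loci, against 75.7% of all loci, and miRNA-like at both sbi-miR169o loci.

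The duplex of the deposited strands was folded again with ViennaRNA, independently of the precursor. Its free energy was lowest at -33.0 kcal/mol for ata-miR169d-5p on Chr04K and -32.9 kcal/mol for the 3 loci with equal strands. It was -31.7 kcal/mol for bdi-miR169k-5p and -31.0 kcal/mol for ata-miR169f-5p at both loci. The weakest duplexes were those of sbi-miR169o on Chr06K at -18.8 kcal/mol and of bdi-miR169d on Chr03N at -19.7 kcal/mol. The median over the 15 loci was -30.1 kcal/mol, against -27.1 kcal/mol over all 210, and the ranges overlapped.

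Predicted energies of the whole hairpins, as deposited, lay between -98.1 and -50.8 kcal/mol. The median was -66.4 kcal/mol for miR169 and -68.8 kcal/mol over all loci. The lowest was that of ata-miR169f-5p on Chr05K at -98.1 kcal/mol, in a precursor of 169 nt, and the highest that of bdi-miR169d on Chr03K at -50.8 kcal/mol, in 110 nt. A lower energy means a more stable predicted fold, and a longer RNA can form more pairs.

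The 5 loci with a listed miRNA* had energies of -98.1 to -77.4 kcal/mol and the 10 with a miRNA* at 0 had -72.2 to -50.8 kcal/mol, so these groups did not overlap. The 5 loci held only ata-miR169f-5p (2 loci) and ata-miR169d-5p (3 loci), each with 1 miRNA* sequence, so they are not separate observations. The groups were also those with a named and an unnamed miRNA*. Over all 210 loci the same groups overlapped widely, from -126.1 to -48.2 kcal/mol with a listed miRNA* (median -79.2) and from -156.6 to -24.1 kcal/mol with a miRNA* at 0 (median -61.4). The length of sequence that the table places outside the arms moved with this split. The flanks on both sides together were 50 nt at each of the 5 loci and 17 to 38 nt at the 10 others, where the median was 18 nt. The stretch from the first base of one arm to the last base of the other was 90 to 119 nt in the former and 92 to 137 nt in the latter, which overlapped. Over all 210 loci, the median flanks were 50 nt at the 92 loci with a listed miRNA* and 22 nt at the 118 without one. The part of flank length in the difference of energies was not tested.

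**Figure D3:**
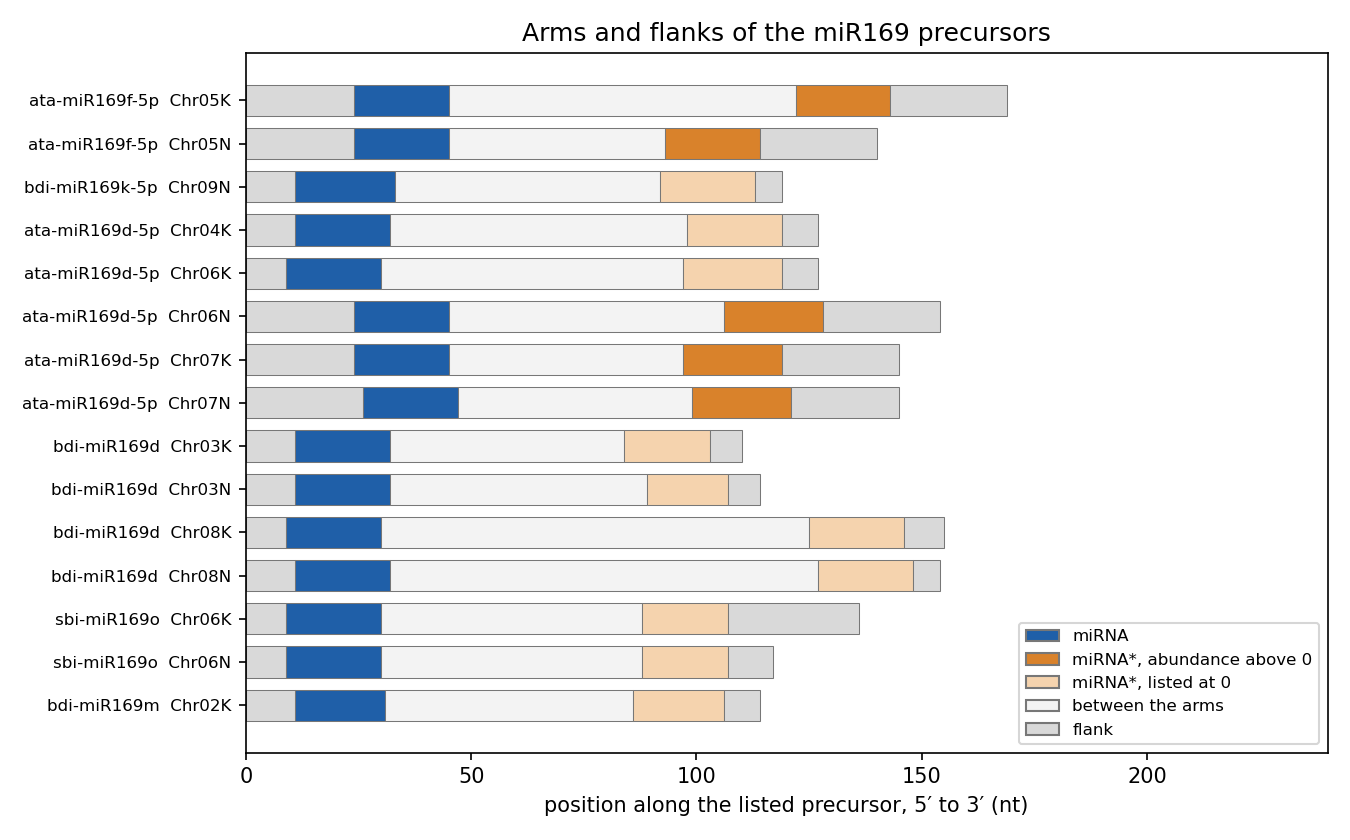
Each bar is a listed miR169 precursor drawn to scale in nt from 5′ to 3′, with the miRNA in blue, the miRNA* in orange (pale where listed at 0) and the flanks in grey. The 5 bars with a dark orange miRNA* have flanks of 50 nt in all, and the 10 others have 17 to 38 nt.

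**Figure D4:**
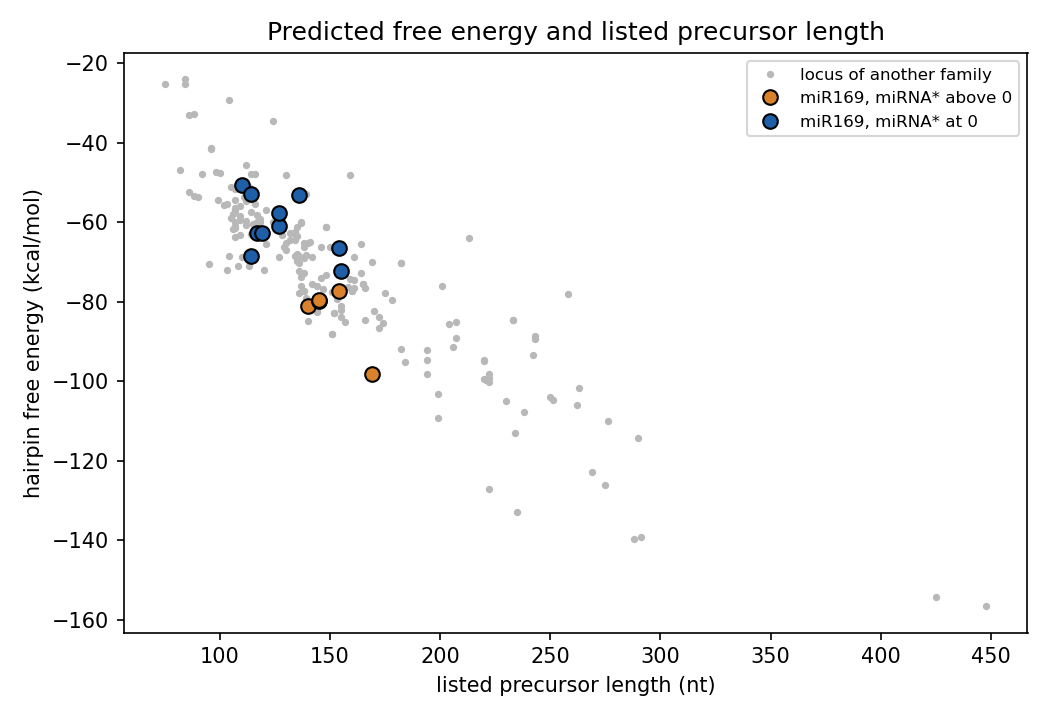
Hairpin free energy in kcal/mol against listed precursor length in nt, with 1 point per locus. Orange points are the 5 miR169 loci with a miRNA* above 0 and blue points the 10 at 0, over the loci of other families in grey. The orange points lie at or below -77.4 kcal/mol and the blue points at or above -72.2 kcal/mol.

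Within the 6 K and N pairs, the hairpin energy was lower on K in 3 pairs and on N in 3 pairs. Subtracting the N from the K energy gave a mean of 1.39 ± 12.6 kcal/mol (SD, n = 6 pairs), with single pairs from -16.9 to 19.7 kcal/mol. No test was made, since loci are not replicates, and whether K and N copies differ cannot be read from these pairs. On chromosome 5 the ata-miR169f-5p copies had the same miRNA, miRNA* and flanks of 50 nt, but the stretch between the arms was 77 nt on K and 48 nt on N, and the energies were -98.1 and -81.2 kcal/mol. On chromosome 7 both ata-miR169d-5p precursors were 145 nt long and their energies were -79.7 on K and -79.5 kcal/mol on N. These pairs had identical duplexes, of -31.0 kcal/mol on chromosome 5 and -32.9 kcal/mol on chromosome 7.

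The ata-miR169d-5p pair on chromosome 6 differed most, with -57.8 kcal/mol on K and -77.4 kcal/mol on N. Its arms spanned 110 nt on K and 104 nt on N, while its flanks were 17 nt on K and 50 nt on N. Its duplex energies were -30.1 and -32.9 kcal/mol. The sbi-miR169o pair had -53.2 kcal/mol on K and -62.6 kcal/mol on N with arms spanning 98 nt in both, and flanks of 38 and 19 nt. For bdi-miR169d the energies were -50.8 and -53.0 kcal/mol on Chr03K and Chr03N, and -72.2 and -66.4 kcal/mol on Chr08K and Chr08N. In the 4 pairs whose flanks differed by under 5 nt on each side, a choice made after seeing the data, the mean difference was -5.17 kcal/mol, of the opposite sign.

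**Figure D5:**
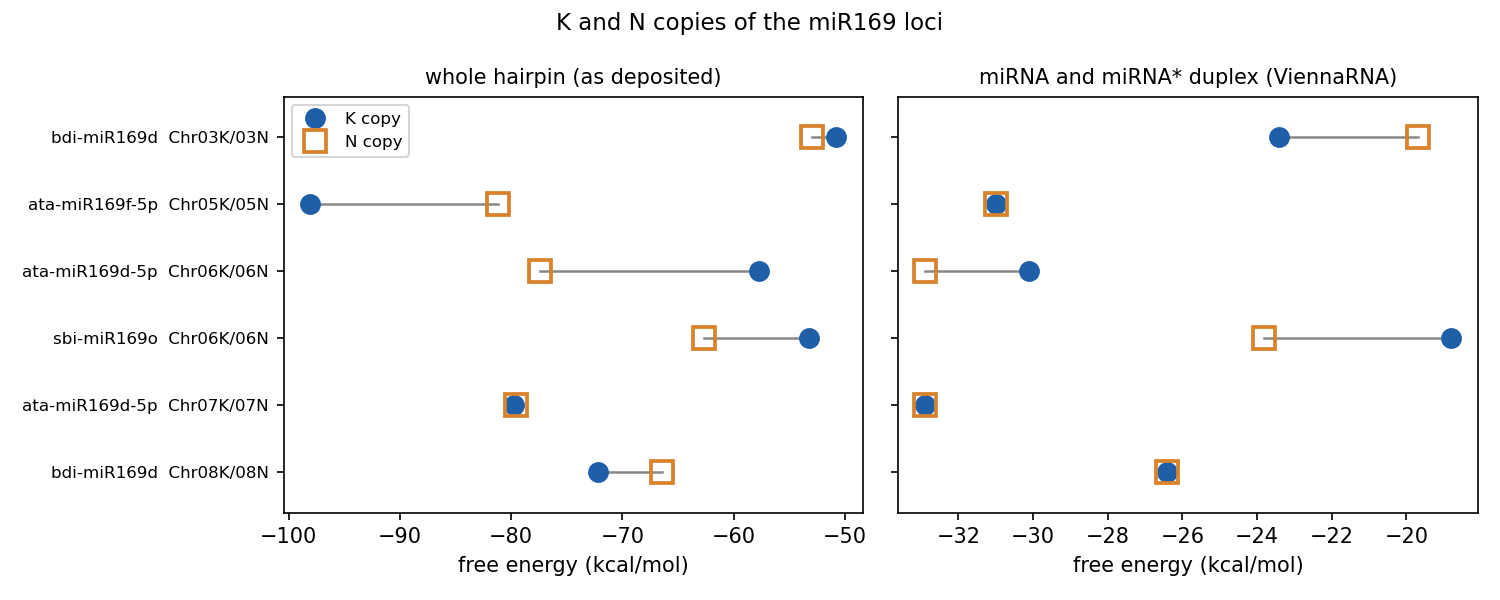
Free energy in kcal/mol of the K copy (blue circles) and the N copy (orange squares) of 6 pairs, for the deposited hairpins on the left and the refolded miRNA and miRNA* duplexes on the right. The hairpin lines run in both directions, from -16.9 to 19.7 kcal/mol for K minus N, and the duplexes coincide on chromosomes 5, 7 and 8.

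The bdi-miR169d loci formed separate kinds of hairpin although they shared a miRNA. On chromosome 3 the stretch between the arms was 52 nt on K and 57 nt on N, and on chromosome 8 it was 95 nt on both. Their miRNA* strands were likewise unlike, with 18 and 19 nt on chromosome 3 and 21 nt on chromosome 8, and the listed mismatch positions were 2 and 3 against 4 and 4. Over the 15 loci the stretch between the arms ranged from 48 to 95 nt with a median of 58 nt, against a median of 59 nt over all loci.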

How the data were processed

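Small RNA reads of 8 libraries were processed by the authors before deposit. Adapters were trimmed and reads were mapped with Bowtie to the switchgrass genome, version 4.1 (Bowtie 0.12.7 in the submitters' processing notes). Sequences matching miRBase 21 that were 20 to 24 nt long and reached 10 TP10M were evaluated with modified miREAP. By the methods, precursors that met limits on strand bias and abundance bias were folded with UNAFold. The abundances of the deposited table are treated as a score without a named unit, and free energies, positions and mismatch numbers were used as deposited.

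Rows were kept where the miRNA abundance was at least that of the miRNA* and the name held miR169 with no further digit. Duplexes were refolded with ViennaRNA 2.7.2 (duplexfold, default settings). Flank lengths take the listed arm starts as counted from 1, and an origin of 0 would move 1 nt from one flank to the other. K and N pairs shared the miRNA and the chromosome number. The text names all miR169 sequences and loci and, of other families, those next in summed abundance and the 3 with the most sequences, to which miR396 was added because it ties with miR166. Members and lists were chosen with earlier results of these data known. No statistical test was made. The selection was tested on simulated data, which held no loci with equal strands, so the choice of strand at such loci was not tested. Alternatives concerned overlaps, scaffolds, structure limits, abundance minimums, calls, arms, pairing and cluster distance. Python 3.11.15, numpy 2.4.6, pandas 2.3.3 and matplotlib 3.10.9 were used. Whole precursors were not refolded, since their sequences were not used here.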

Additional observations from a re-analysis of the deposited data

How the results depend on the processing

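Of 44 values recomputed under an alternative, 36 stayed within 1.5 times the main count or, for energies, within 1 SD of single loci or pairs, a wide bar. By it the mean of K minus N energies counts as unmoved although it went from 1.39 to -5.17 kcal/mol, a change of sign, in the pairs with like flanks. Some of the 36 values could not have moved. No locus lay on an unplaced scaffold, and the closest loci on a chromosome were 56.2 Mb apart. Merging overlaps, leaving out scaffolds and changing the cluster distance or strand therefore had to return the main values. With a miRNA* abundance of at least 1 there were 5 loci, 2 sequences, a summed abundance of 34 and a median energy of -79.7 kcal/mol. With a miRNA abundance of at least 10, the number that the methods set in TP10M, there were 3 loci, 2 sequences and a median energy of -81.2 kcal/mol. Requiring the same miRNA* left 2 K and N pairs. These changes follow from the smaller sets, and the cause of the shifts in energy was not tested. Counting both arms where they were equal, an alternative chosen after seeing the data, gave 7 sequences with a summed abundance of 71. No cluster was found with 5 kb or 50 kb either. No paired analysis was possible because the table lists pooled values and names no library. With pooled whole-number values of unnamed unit, differences among the members listed at 2 to 5 could not be resolved.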
